A study of Mus musculus with 8 samples.

Results

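Potassium channel genes were examined in hair cells of the neonatal mouse cochlea. The set held every protein-coding gene of the deposited table whose symbol begins with Kcn, except Kcnn2, and comprised 83 of 25343 genes. It covers the pore-forming subunits of all potassium channel classes and 16 auxiliary genes, which encode beta subunits, calcium-binding partners and other regulators and form no pore by themselves. Levels were summarised over all 83 genes. Genotypes were compared for the 62 with a normalized count of 10 or more in at least 4 of the 8 libraries, and the other 21 were too low for that.

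The libraries came from 4 wild-type pools and 4 pools of Ndp knockout mice. Ndp encodes norrin, a secreted signalling protein whose loss causes Norrie disease. Both genotypes were on a mixed C57BL/6 and 129 background at postnatal day 4 to 6, and both carried the Atoh1-GFP marker used for sorting, in which green fluorescent protein follows the hair cell factor Atoh1. A pool combined 12 to 20 sensory epithelia, but no label ties a pool to a litter, so every p-value rests on spread among pools that may be partly technical. Full-length cDNA was amplified from picogram amounts of RNA and sequenced without strand information. The reads recovered for the genes of the deposited table, counted or estimated, summed to 35077950 to 48329827 per library.

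Potassium channels open a path for potassium across the cell membrane and so set the resting voltage, shape the receptor potential and return it to rest. Cochlear hair cells take in potassium from endolymph through their transduction channels and release it at their base, partly through voltage-gated channels and through large-conductance calcium-activated (BK) channels, which assemble from Kcnma1 and beta subunits and become prominent as hearing begins. Supporting cells around the hair cells take up potassium with inward rectifiers and two-pore channels, and the stria vascularis secretes it back into endolymph.

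Some facts of the libraries bear on the values below. Ndp, the targeted gene, had 174, 90.4, 114 and 206 normalized counts in wild-type libraries 1 to 4 and 10.5, 22.6, 66.8 and 45.1 in knockout libraries 1 to 4. The normalized count is the whole number of reads, counted or estimated, after the authors' scaling of each library, and 3 reads, taken as the floor of detection, were worth 2.34 to 3.49 of it. The hair cell markers without potassium channels summed to 313305 to 382326 in wild type and 335657 to 391648 in the knockout. Markers of supporting cells were also abundant, at 181812 to 376233 and 226852 to 304672. Tectb, with a mean of 196880 over all libraries, made up much of this sum, and Calb1, with 187687, much of the hair cell sum. Of the 11 supporting cell markers 2 had a positive log2 difference, with a median of -0.30 and 3 lower at an unadjusted p under 0.05. Macrophage markers summed to 2098 to 5138 and 3819 to 6137, with a positive log2 difference for 11 of 12 genes. In limma 5 were higher at an unadjusted p under 0.05. In edgeR the unadjusted p of these was 0.0286 for C1qa but 0.158 for Adgre1, 0.194 for C1qc, 0.0833 for Fcer1g and 0.382 for Lyz2. Csf1r was under 0.05 in edgeR only, at 0.0495. Endothelial markers summed to 113 to 224 and 248 to 351 without overlap, with 6 of 7 positive, although each of these genes on its own overlapped between genotypes. Tek among them had an unadjusted p of 0.0377 in limma and 0.0693 in edgeR. Mesenchyme markers summed to 17440 to 24352 and 18781 to 35963, with 3 of 10 genes higher at an unadjusted p under 0.05, and neuron markers to 23381 to 31279 and 25798 to 31096. These counts of markers are from limma. There 3.1% of all genes were higher and 2.47% lower at an unadjusted p under 0.05, and 52.5% had a positive difference. No marker passed at an adjusted p under 0.05 in limma. In DESeq2 the mesenchyme marker Coch passed, with a log2 difference of 2.04 and an adjusted p of 0.00864. The adjusted p of Coch was 0.895 in limma and 0.996 in edgeR. The part of other cell types in the genotype differences was not tested. Red blood cell markers reached at most 49.3 and 63.2. Wild-type library 3 had the lowest supporting cell sum and, among wild-type libraries, the highest hair cell sum. Tectb was also lowest in that library, at 106783. Knockout library 1 stood apart in the low channel genes, as described further on. In such sorted pools, fewer cells of a type and less RNA per cell cannot be told apart.

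Kcnj13 and Kcna10 led the set, and together they held 51.3% of all normalized counts of the 83 genes, while the top 10 by count held 85.9%. Such shares of counts, here and for the classes, grow with transcript length as well as level. Kcnj13 (ENSMUSG00000079436, chromosome 1, 87386363 to 87394729, minus strand, mm10) encodes an inward rectifier known from epithelia that move potassium, such as retinal pigment epithelium and choroid plexus. Kcna10 (ENSMUSG00000042861, chromosome 3, 107183056 to 107195721, plus strand, mm10) encodes a Shaker-type voltage-gated subunit known from inner ear hair cells. The stretches before the RefSeq start sites of both genes are shown because these genes lead the set and kept the same order of libraries within each genotype. They are written 5′ to 3′ on the strand of the gene in build GRCm38.p6, chr1:87394730-87394979 (minus strand) for Kcnj13 and chr3:107182893-107183055 (plus strand) for Kcna10, and capitals mark the E-box letters CAGCTG and the TATA-box letters TATAAA.
Kcnj13: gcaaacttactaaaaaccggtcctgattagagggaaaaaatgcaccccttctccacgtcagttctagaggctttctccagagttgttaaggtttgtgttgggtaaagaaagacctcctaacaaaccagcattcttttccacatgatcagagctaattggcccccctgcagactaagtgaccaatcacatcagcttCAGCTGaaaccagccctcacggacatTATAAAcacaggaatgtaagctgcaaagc
Kcna10: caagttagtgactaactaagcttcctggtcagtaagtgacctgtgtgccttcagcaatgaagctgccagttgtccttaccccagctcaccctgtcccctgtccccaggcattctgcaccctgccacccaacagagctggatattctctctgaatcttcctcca
The first window is 250 bases and the second 163, ending before the first annotated exon base. Both motifs stood in the Kcnj13 window and neither in that of Kcna10. Among 32851 RefSeq windows of 250 bases, searched on both strands, 13.0% held CAGCTG and 12.4% TATAAA. Of the 83 genes 62 had such windows in the table, 87 in all, and 21 of the 87 (24.1%) held CAGCTG and 3 (3.45%) TATAAA. The letters of the motifs do not overlap each other. Base composition was not matched, and these counts describe letters, not binding.

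Kcnj13 had 30442, 20877, 16718 and 34924 normalized counts in wild-type libraries 1 to 4 and 33859.7, 29198, 30589 and 27619.7 in knockout libraries 1 to 4. Wild-type library 3 was lowest and wild-type library 4 highest, so the genotypes overlapped. Kcna10 had 19938, 15741, 13016 and 25197 in wild type and 26864, 22265, 23209 and 19811 in the knockout. Again wild-type libraries ranked 4, 1, 2, 3 from high to low and knockout libraries 1, 3, 2, 4, the same ranks as for Kcnj13. The spread between libraries was nearly the same for both, with a coefficient of variation (SD over mean) of 22.3% and 22.4% over 8 libraries. Of the exon bases of Kcnj13, 49.1% also lie in exons of the protein-coding gene Gigyf2, where reads of both genes cannot be told apart without strand. As a mean level over all libraries, Gigyf2 had 248 normalized counts per kilobase of exon and Kcnj13 22069.5.

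For an order of levels between genes, counts were divided by length, per kilobase of the merged exons of GENCODE M21. On that scale Kcnj13 led with 22069.5 ± 4931, followed by Kcna10 with 9573 ± 2149 and Kcnk1 with 3565 ± 523 normalized counts per kilobase (SD, n = 8). The ranges of these 3 genes over the libraries did not overlap, although the lowest value of Kcnj13, 13163, lay close to the highest of Kcna10, 12391. Kcnh6 (1286 ± 231), Kcnmb2 (1095 ± 181), Kcnj16 (1009 ± 238), Kcns3 (974 ± 83.0) and Kcnj10 (739.7 ± 325) followed within the top 10, each within 1 SD of another. Kcnh2 closed the top 10 with 520.4 ± 105. The top 10 was the same set when the length of the principal transcript was used instead. Kcnk3 (330 ± 68.5), Kcnip3 (325 ± 110) and Kcnh8 (304 ± 36.4) came next and then, a step lower, Kcnab2 (118 ± 42.8), whose highest library at 189 lay below the lowest of Kcnh8 at 249.3. Unscaled by length, 15 genes had a mean normalized count of 1000 or more, 19 a mean of 100 to 1000 and 49 a mean under 100. Reads were found in every library for 49 of the 83 genes.

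**Figure D1:**
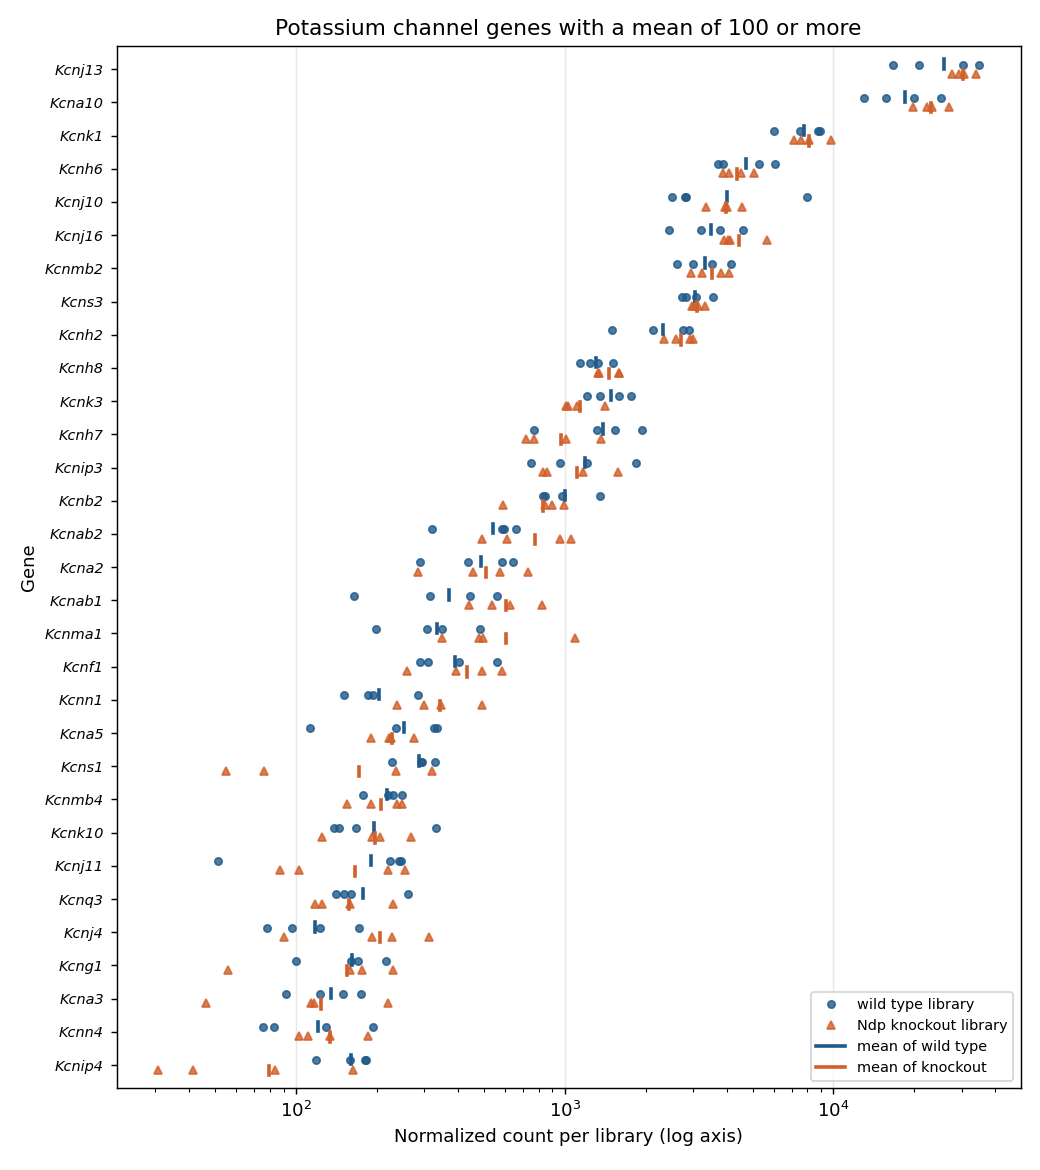
Normalized count (log axis) of 31 potassium channel genes with a mean of 100 or more in each wild-type (circles) and knockout (triangles) library, with vertical bars at the group means. Kcnj13 and Kcna10 have the highest counts, which are not scaled by length, Kcnj10 has 1 wild-type library at 7973 far above the rest, and for nearly all genes circles and triangles interleave.

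No potassium channel gene differed between genotypes at an adjusted p under 0.05. The test was limma on log2(normalized count + 1), fitted on all 18203 genes past the minimum, of which it called 1, or 0.00549%. Among the 62 genes compared 0 were called, and their lowest adjusted p was 0.895. At an unadjusted p under 0.05 limma listed 4 of the 62 (6.45%), beside 5.57% of all genes. The 2 higher in the knockout, beside 3.1% of all genes, were Kcnn1 and Kcnab1, and the 2 lower, beside 2.47%, were Kcnip2 and Kcnip4. The genotypes did not overlap for 1 of the 62 genes, Kcnip2 (1.61%), beside 3.04% of all genes, of which 1.46% lay higher and 1.58% lower in the knockout, and 38 of 62 (61.3%) had a positive difference, beside 52.5%. The median log2 difference, knockout minus wild type, was 0.08 over the 62 genes and 0.02 over all genes. In edgeR's quasi-likelihood fit of the reads 0 of 62 were called, beside 0.0% of all genes. There 2 had an unadjusted p under 0.05, Kcnn1 and Kcne1l, beside 4.55%. DESeq2 called 0 of the 61 with a p-value there, beside 0.0882% of all genes, with 4 at an unadjusted p under 0.05, beside 6.26%. Those 4 were Kcnn1, Kcnip2, Kcnma1 and Kcnk3, so only Kcnn1 and Kcnip2 were also on limma's list. Of the genes with an adjusted p in the authors' deposited table, 0.136% lay under 0.05, and 0 channel genes did. The lowest adjusted p of a channel gene in the authors' deposited table was that of Kcnn3 (0.342), and 5 had no p-value there.

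The median half-width of the 95% interval was 2.15 log2 units for genes with a mean under 100, 0.78 from 100 to 1000 and 0.44, with a range from 0.29 to 0.71, at 1000 or more. Even for abundant genes such as Kcna10, Kcnj13 and Kcnj10 the interval therefore takes in sizeable differences. The fitted difference lay within 0.5 log2 units of 0 for 42 of the 62 genes, and the 95% interval lay wholly within 1 log2 unit for 22. The 12 genes with a difference beyond 1 log2 unit include low ones such as Kcnc1, which had 62.3, 0, 1.56 and 0 normalized counts in wild type and 82.2, 65.7, 18.9 and 5.5 in the knockout. Its fitted log2 difference of 3.03 came with an interval from -0.01 to 6.07 on the log2 scale, and edgeR gave 1.43. For genes of this level the added 1 and single libraries at 0 move the fitted value. In simulated data over 18203 genes limma called 26 of 100 genes changed 2-fold and 72 of 100 changed 4-fold, with 4 false calls. The changed genes were drawn at random from all genes. All were changed in the same data, which makes an adjusted p under 0.05 easier to reach, whereas limma called 1 gene in the real data. These rates are therefore not those of the channel genes, whose levels and spread were not matched to those of the drawn genes. In the real data Ndp itself was not called, with a log2 difference of -2.20 and an adjusted p of 0.895 in limma.

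**Figure D2:**
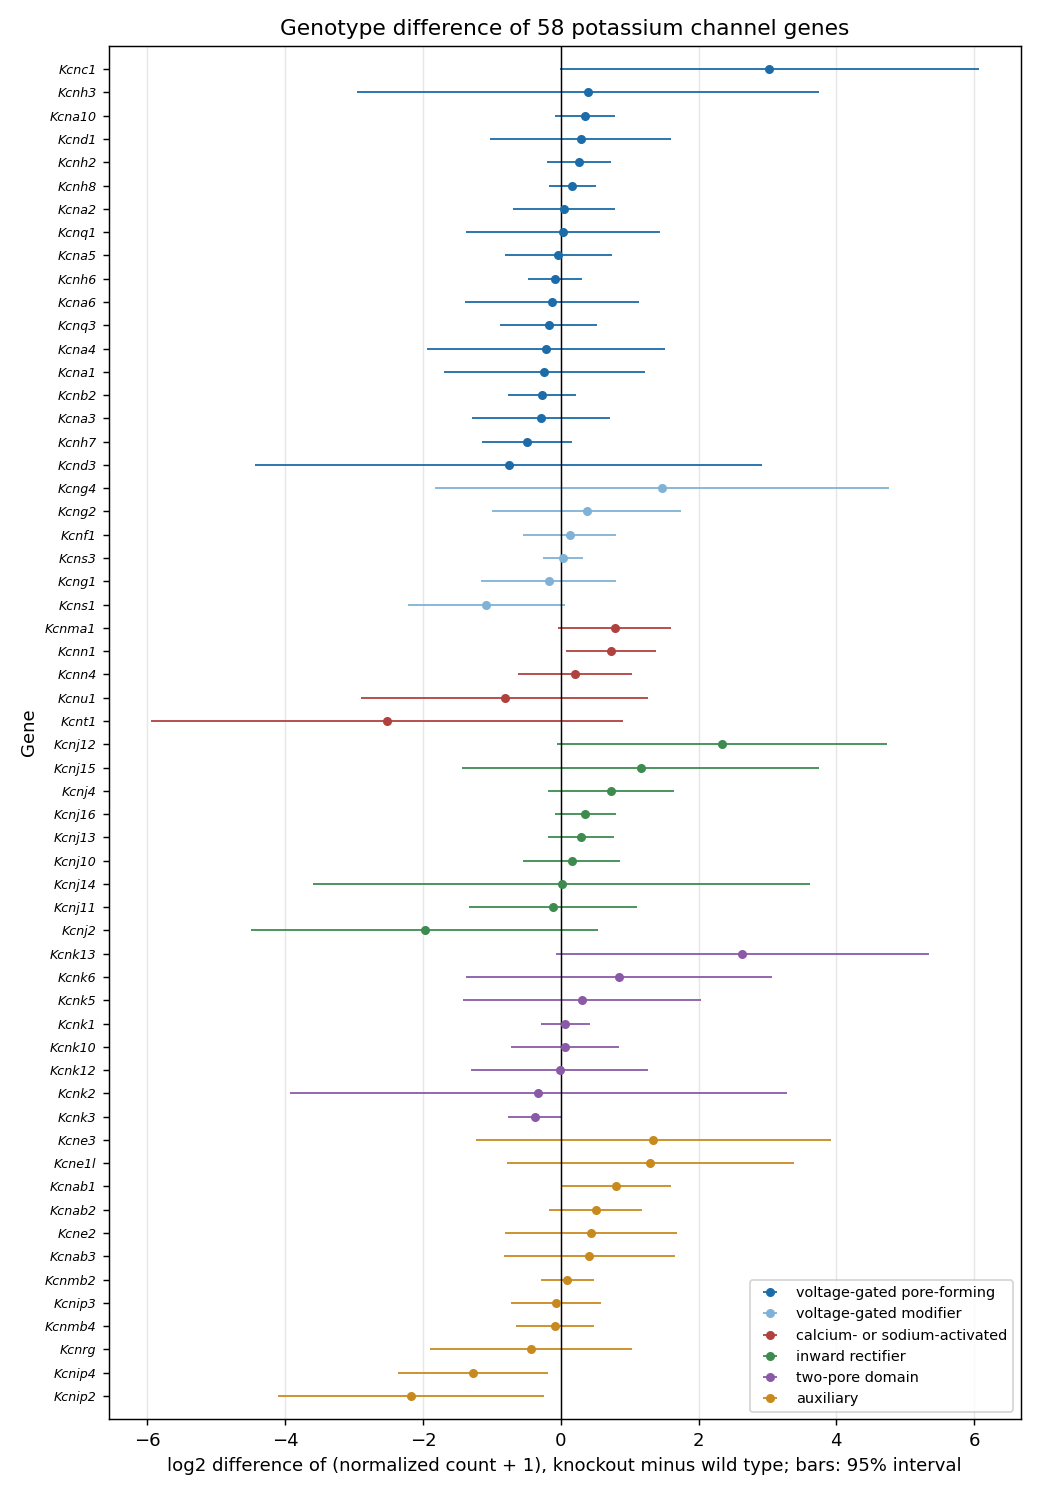
Log2 difference of (normalized count + 1), knockout minus wild type, of 58 potassium channel genes compared, ordered within 6 classes given by colour, with 95% intervals from limma as bars. Points of the abundant genes lie close to 0 with short bars, and none passed at an adjusted p under 0.05.

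Voltage-gated pore-forming genes made up 28 of the 83 genes and 39.5% of their normalized counts, and of the 22 compared 0 were called, with a median log2 difference of 0.03. After Kcna10 the ERG-type gene Kcnh6 of the ether-a-go-go family was most abundant in this class. It had 3734, 5263, 6039 and 3898 normalized counts in wild type and 3886, 4535, 4102 and 5058 in the knockout, fully overlapping. Kcnh2, whose human counterpart repolarizes heart muscle, had 2323 ± 641 and 2719 ± 307, and the ELK-type Kcnh8 had 1306 ± 162 and 1466 ± 145 (SD, n = 4 each). Kcnh7, of the ERG type like Kcnh6 and Kcnh2, had 1319, 767, 1936 and 1544 in wild type and 718, 1368, 771 and 1014 in the knockout. Knockout libraries 1, 3 and 4 lay below 3 of the 4 wild-type libraries, with a log2 difference of -0.49 ± 0.30 (SE) and an adjusted p of 0.924 in limma. Kcnh3 was low, and Kcnh1 was seen in knockout library 1 only, at 15.8.

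Genes of the KCNQ family encode slow voltage-gated channels. Kcnq3 had 178 ± 56.2 and 158 ± 51.2, and Kcnq1, the pore of the potassium-secreting channel of the stria vascularis, had 57.3 ± 27.9 and 67.5 ± 43.4 (SD, n = 4 each). Without potassium channels, the 3 stria vascularis markers that could be compared had negative differences, with 0 at an unadjusted p under 0.05 in limma. The 5 such markers found in the table summed to 244 to 382 in wild type and 217 to 354 in the knockout. Kcnq1 and Kcnj10, which are also on that list, had positive log2 differences of 0.03 and 0.16.

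Among the Shaker-type genes Kcna10 stood far above its relatives. Its difference was 0.35 ± 0.20 (SE) on the log2 scale, with a 95% interval from -0.08 to 0.79 and an adjusted p of 0.917 in limma. Kcna2, a delayed rectifier gene of axons, had 488 ± 158 and 512 ± 189 normalized counts, and Kcna5 had 253 ± 104 and 228 ± 35.1 (SD, n = 4 each). Kcna10 lies in a cluster on chromosome 3, after Kcna3 and Kcna2, with 63.1 kb between Kcna3 and Kcna2 and 68.1 kb between Kcna2 and Kcna10. The levels of these neighbours were 68.1, 42.0 and 9573 normalized counts per kilobase in that order. The cluster of Kcna5, Kcna1 and Kcna6 on chromosome 6 had 84.0, 16.4 and 11.7 per kilobase, although 39.6% of the exon bases of Kcna6 are shared with the antisense gene Gm26673, listed at a mean of 3.19 normalized counts over wild-type and 3.71 over knockout libraries.

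The Shab-type delayed rectifier gene Kcnb2 had 1001 ± 243 and 829.8 ± 173 (SD, n = 4 each). The Shal-type Kcnd1 had 85.3 ± 71.6 and 85.9 ± 35.7 (SD, n = 4 each). Lower Shaw and Shal genes had means from 7.01 for Kcnc4 to 29.5 for Kcnc1.

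Modifier genes encode subunits that form no channel alone but join Shab-type subunits and change their gating. They held 4.16% of the counts, and 0 of 6 compared were called. Kcns3 was the steadiest gene of the whole set, with 2837, 2743, 3558 and 3079.9 normalized counts in wild type and 3018, 3128, 3331 and 2966 in the knockout. Its coefficient of variation was 8.52%, and its log2 difference of 0.03 had an interval from -0.26 to 0.32. Kcns1 was less even, with 328, 228, 294 and 293 in wild type and 54.8, 319.7, 75.8 and 236 in the knockout. Knockout libraries 1 and 3 lay far below all wild-type libraries and knockout libraries 2 and 4 among them, and the log2 difference was -1.08 ± 0.52 (SE; adjusted p 0.903 in limma). Kcnf1 had 392 ± 124 and 433 ± 141 and Kcng1 162 ± 47.3 and 155 ± 72.5 (SD, n = 4 each).

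Calcium- and sodium-activated genes held only 0.985% of the counts, and of 5 compared 0 were called. Kcnma1 (ENSMUSG00000063142, chromosome 14, 23289431 to 24014491, minus strand, mm10), the BK pore gene and, like Kcna10, a hair cell marker, had 199, 349.6, 307 and 484 normalized counts in wild type and 349, 495, 1096 and 481 in the knockout. Knockout library 3 stood well above all others and wild-type library 1 below, and 2 of the wild-type libraries overlapped the knockout range. The log2 difference was 0.78 ± 0.37 (SE), with an interval from -0.04 to 1.61 and an adjusted p of 0.903 in limma. Unadjusted, the p of Kcnma1 was 0.0597 in limma, 0.0509 in edgeR and 0.0312 in DESeq2. Without knockout library 3 the difference was 0.45. Its level was 27.7 per kilobase of merged exons, rank 31 of 83, and 106 per kilobase of the principal transcript, rank 18, since its merged exons span 16976 bases and the principal transcript 4440. As a marker it was therefore detected in every library but far below Kcna10.

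Outer hair cell markers also differed between libraries. Slc26a5, which encodes the motor protein prestin, had 9536, 12302, 6778 and 10782.5 normalized counts in wild type and 23324.5, 8147, 28767 and 16837 in the knockout. Knockout library 3 was highest for it as for Kcnma1. The order of the other knockout libraries differed, with library 1 next for Slc26a5 but the lowest knockout library for Kcnma1. Ocm, Ikzf2 and Strc were also highest in knockout library 3, but Insm1 was highest in knockout library 1 and Chrna10 in knockout library 2. The outer hair cell list had a positive difference for 5 of 6 genes, beside 52.5% of all genes, with a median of 0.55 on the log2 scale. This list summed to 64086 to 83142 in wild type and 78433 to 118589 in the knockout, with all 6 genes detected in every library. The inner hair cell list summed to 42639 to 47611 and 45022 to 55914. Their part in the values of Kcnma1 was not tested.

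Kcnn1, which encodes a small-conductance calcium-activated subunit, had 193, 152, 285 and 186 normalized counts in wild type and 237, 345, 299 and 491 in the knockout. Only wild-type library 3 reached into the knockout range. The log2 difference was 0.73 ± 0.29 (SE), with an unadjusted p of 0.0307 and an adjusted p of 0.895 in limma. The pair of libraries that share a title date, wild-type library 2 and knockout library 2, gave a difference of 1.18, and the other 6 gave 0.58. Kcnn4, the intermediate-conductance gene also known from blood cells, had 121 ± 54.6 and 133 ± 37.6 (SD, n = 4 each). Kcnn3 was too low for the comparison, with 17.9, 11.0, 44.4 and 4.65 in wild type and 0, 3.92, 0 and 0 in the knockout. Wild-type library 4 and knockout library 2 held 4 reads each, so their order comes from the scaling alone. In the authors' deposited table its unshrunken log2 fold change was -4.30 and its shrunken one -0.30. Kcnt1, a sodium-activated channel gene, and Kcnu1, known from sperm, had means of 22.0 and 30.8.

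Inward rectifier genes held 38.4% of the counts, of which Kcnj13 made up the most, and of 9 compared 0 were called. Kcnj13 itself had a log2 difference of 0.29 ± 0.21 (SE) and an interval from -0.18 to 0.77. Kcnj10 and Kcnj16 encode subunits that join in mixed channels of glia and epithelia and are known from supporting cells and stria of the cochlea. Kcnj10 had 2502, 7973, 2826 and 2793 normalized counts in wild type and 4026, 3358, 4559 and 3961 in the knockout. Wild-type library 2 exceeded every other library, and the other 3 wild-type libraries lay below all 4 knockout libraries. The log2 difference was 0.16 with that library and 0.55 without it, and edgeR gave -0.02. In wild-type library 2 the supporting cell genes Fgfr3 (25506) and Prox1 (5824) were also at their highest, against 7640 to 13300 and 1119 to 3423 in the other 7 libraries. Hes5, Hey1 and Lfng were highest there as well. The rest of the list, Sox2, S100a6, Tectb, Otog, Gjb2 and Gjb6, was highest in other libraries, and Sox2 (3620) was lowest there among wild-type libraries. The part of supporting cells in the Kcnj10 value was not tested.

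Kcnj16 had 3777, 4609.8, 2450.5 and 3210.1 normalized counts in wild type and 3926, 4054, 5635 and 4119 in the knockout. Only wild-type library 2 reached the knockout range, and the log2 difference was 0.36 ± 0.20 (SE; adjusted p 0.917 in limma). The neighbours of both genes were low. Kcnj9 lies 11.9 kb from Kcnj10 on chromosome 1 and had 2.25 per kilobase against 739.7, and Kcnj2 lies 38.2 kb after Kcnj16 on chromosome 11 and had 8.33 against 1009. Kcnj2, a strong inward rectifier gene of muscle and neurons, had 63.4, 73.0, 81.9 and 24.4 normalized counts in wild type and 0, 45.1, 13.5 and 61.6 in the knockout. Kcnj11, the pore of the ATP-sensitive channel, had 191 ± 93.5 and 166 ± 84.0, and Kcnj4 had 117 ± 40.9 and 206 ± 92.3 (SD, n = 4 each). Kcnj12 had 46.5, 33.8, 13.3 and 0 in wild type and 29.5, 55.9, 126 and 69.3 in the knockout, a fitted log2 difference of 2.34 by limma and 1.58 by edgeR.

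The two-pore genes encode leak channels and held 10.3% of the counts, and of 8 compared 0 were called. Kcnk1, next to Kcna10 in the order of levels, had 8794, 8885, 6034 and 7489 normalized counts in wild type and 8102, 7126, 9755 and 7558 in the knockout. Wild-type library 3 was lowest, as for Kcnj13 and Kcna10, and the log2 difference of 0.07 had an interval from -0.29 to 0.42. Kcnk3, an acid-sensitive leak channel gene, had 1772, 1589, 1209 and 1356 in wild type and 1413, 1033, 1013 and 1109.8 in the knockout. All knockout libraries except library 1 lay below every wild-type library, with a log2 difference of -0.37 ± 0.18 (SE; adjusted p 0.903 in limma) and an interval from -0.77 to 0.02. Unadjusted, the p of Kcnk3 was 0.0613 in limma, 0.0539 in edgeR and 0.0435 in DESeq2. Kcnk10, of a stretch-sensitive type, had 196 ± 91.9 and 197 ± 59.0 (SD, n = 4 each). Kcnk5 and Kcnk6 had 8.58 and 3.12 in wild-type library 3, their lowest values, against 46.2 to 174 and 25.5 to 184 in the other 7 libraries.

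Auxiliary genes held 6.63% of the counts, and of 12 compared 0 were called, and 3 (25.0%) had an unadjusted p under 0.05 in limma, beside 5.57% of all genes. In edgeR the unadjusted p of these 3 genes was over 0.05, at 0.0511 for Kcnip2, 0.0744 for Kcnip4 and 0.0749 for Kcnab1, and in DESeq2 it was 0.0266, 0.0539 and 0.0530. Kcnmb2, which encodes an inactivating BK beta subunit, had 3005, 2607, 3529.5 and 4148 normalized counts in wild type and 3819, 3250.4, 2956 and 4097 in the knockout. Per kilobase of the principal transcript it had 1174, compared with 106 for the BK pore gene Kcnma1. Kcnmb4, the beta subunit gene of neurons, had 219 ± 29.5 and 208 ± 43.8 (SD, n = 4 each), with 20.8% of its exon bases shared with the antisense gene Kcnmb4os2. Kcnmb1, the smooth muscle subunit, stayed at or below the floor in 5 libraries and reached 17.9 in knockout library 1.

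The Kv beta subunits bind Shaker-type channels from the cytoplasm. Kcnab1 had 446, 558, 165 and 315 normalized counts in wild type and 824, 535, 623 and 442 in the knockout. The genotypes overlapped, with wild-type library 3 lowest and knockout library 1 highest, and the log2 difference was 0.81 ± 0.36 (SE; unadjusted p 0.0484, adjusted p 0.895 in limma). Without wild-type library 3 it was 0.46, and in the pair of libraries with a shared title date it was -0.06. Kcnab2 had 594, 657, 586 and 319.7 in wild type and 957, 612, 1052 and 491 in the knockout, a log2 difference of 0.51 ± 0.31 (SE). All 3 genes of this family had a positive difference, the third being the low gene Kcnab3.

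The KChIP genes encode calcium-binding proteins that join Shal-type channels. Kcnip4 had 158, 182, 180.1 and 119 normalized counts in wild type and 30.6, 163, 41.5 and 83.6 in the knockout. Knockout library 2 lay among the wild-type libraries and the other 3 below them, with a log2 difference of -1.27 ± 0.49 (SE; unadjusted p 0.0263, adjusted p 0.895 in limma). Kcnip2 had 74.97, 68.5, 81.9 and 238 in wild type and 23.2, 62.8, 50.5 and 2.2 in the knockout. It was the 1 gene compared whose genotypes did not overlap, by a margin of 68.5 against 62.8 between the libraries of the shared date. Its log2 difference was -2.17 ± 0.87 (SE; unadjusted p 0.0311, adjusted p 0.895 in limma). Without knockout library 4 the difference was -1.23 and without wild-type library 4 it was -1.76. The pair of the shared date gave -0.12 for Kcnip2 and -0.16 for Kcnip4. Kcnip3, which also acts as a transcriptional repressor, was the abundant member with 1192 ± 476 and 1109.9 ± 349.6 (SD, n = 4 each), while the Shal-type pore genes that these proteins serve were low.

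The single-span subunits of the Kcne type were low throughout, with means from 1.92 for Kcne4 to 37.5 for Kcne1l. Kcne1l had 11.6, 19.2, 3.90 and 14.0 normalized counts in wild type and 208, 19.6, 15.3 and 8.80 in the knockout, and knockout library 1 stood far above the other 7. Kcne2 had 22.7 ± 12.4 and 27.9 ± 6.34 and Kcne3 27.8 ± 28.7 and 34.0 ± 15.3 (SD, n = 4 each). Kcnrg, which encodes a soluble regulator of voltage-gated channels, had 31.1 ± 15.4 and 26.5 ± 21.4 (SD, n = 4 each).

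The 21 genes below the minimum were compared by library only. Knockout library 1 was the highest library for 10 of them (47.6%), beside 13.2% of all 7140 genes below the minimum. Their summed normalized counts were 1036 in knockout library 1, against 40.2 to 249.7 in the other knockout libraries and 69.8 to 148 in wild type. Most of that sum came from the G-protein-gated inward rectifier genes Kcnj6 and Kcnj3 and the leak channel gene Kcnk9, all known from neurons. Kcnj6 had 29.6, 0, 0 and 0 in wild type and 251, 0, 10.8 and 0 in the knockout. Kcnj3 had 25.3, 3.65, 0 and 6.98 and then 201, 0, 14.4 and 7.70, with 31.1% of its exon bases shared with the noncoding gene Gm26794, and Kcnk9 had 1.06, 42.9, 0 and 0 and then 248, 0.981, 5.41 and 0. Kcnq5 (89.6), Kcns2 (63.3), Kcnd2 (49.6), Kcnmb3 (29.5) and Kcnt2 (25.3) were also highest in that library. Among the genes compared it was the highest library for 11 of 62 (17.7%), beside 11.6% of all genes, Kcne1l (208) and Kcnd3 (120.2) included.

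Of 10 neuron markers, 4 were highest in knockout library 1 and 2 lowest. Stmn2 (1742), Tubb3 (1867), Snap25 (2313) and Map2 (4249) were highest there, against 183 to 628, 289 to 1073, 1215 to 1771 and 2173 to 3649 normalized counts in the other 7 libraries. Nefm (4298) and Ntrk3 (8.43) were lowest there, against 4459 to 7801 and 22.8 to 59.5. The sum of the list, 30167, lay within the range of the other libraries and was made up mostly of Nefl (14784) and Nefm. Insm1, a factor of neurons and of young outer hair cells, was at 1018 against 106 to 384. The part of neurons or of other cells in the values of the low channel genes was not tested. Without knockout library 1 the 62 genes had 0 calls, 6 genes at an unadjusted p under 0.05 and a median log2 difference of 0.15. At the edge of the minimum, Kcnc1, Kcnd3, Kcnj14, Kcnk13, Kcnk2 and Kcnt1 reached 10 in exactly 4 libraries, and Kcnd2, Kcnj3, Kcnj6, Kcnj8, Kcnmb3 and Kcnn3 in 3.

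**Figure D3:**
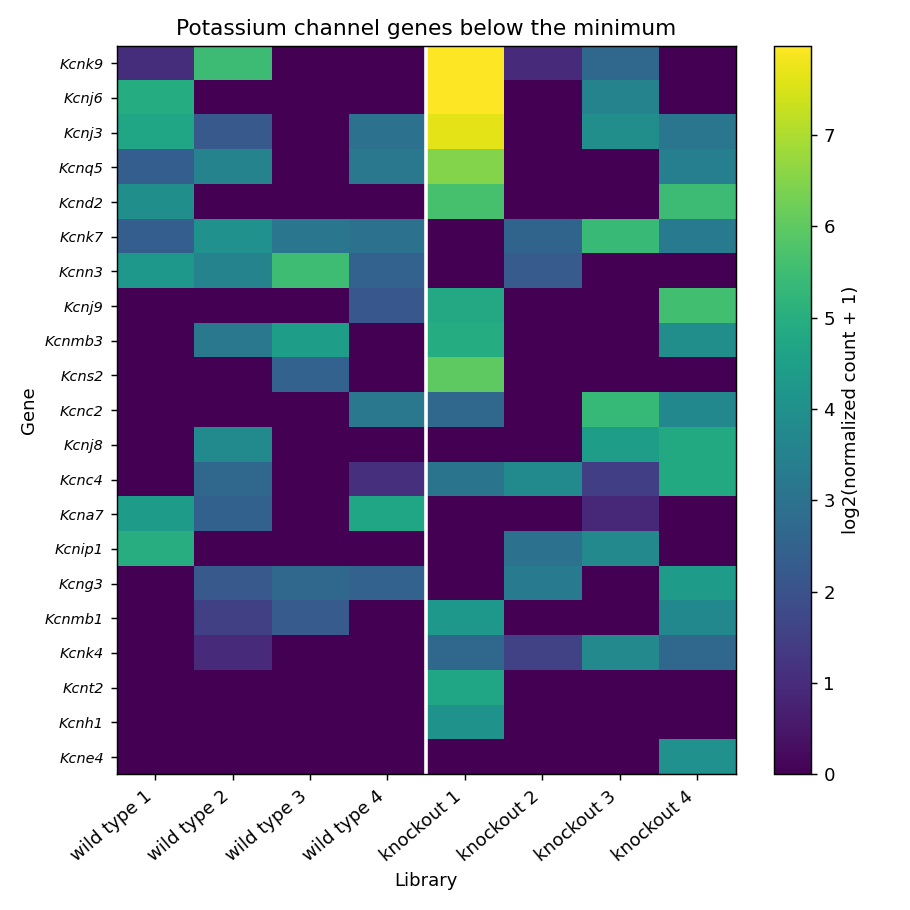
Heat map of log2(normalized count + 1), by colour, of the 21 potassium channel genes below the minimum (rows) in the 8 libraries (columns, wild type left of the white line). Knockout library 1 holds the brightest cells, for Kcnk9, Kcnj6 and Kcnj3, and is the highest library for 10 of the 21 genes.

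In wide bands of level, the median spread between libraries was somewhat larger for these genes than for all genes. With a mean normalized count under 100 the median coefficient of variation was 76.6% over 28 channel genes and 56.7% over 5272 genes. From 100 to 1000 it was 36.2% over 19 channel genes and 28.9% over all, and at 1000 or more it was 20.8% over 15 and 17.5% over all. Levels within a band were not matched. Over all genes compared the median was 39.5% at 100 to 200 and 23.0% at 500 to 1000. How much of the gap between channel genes and all genes comes from level was not tested. Kcns3 and Kcnh8 (12.0%) were the steadiest of the abundant genes, and Kcnj10 (43.9%) and Kcnh7 (37.1%) the most variable. In all, the 83 genes took up 0.226% ± 0.0216 of the normalized counts of wild-type libraries and 0.253% ± 0.0164 of those of knockout libraries (SD, n = 4 each). Without Kcnj13 and Kcna10 their sums were 45329.9 ± 5084 and 47373 ± 2379.9 (SD, n = 4 each).

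**Figure D4:**
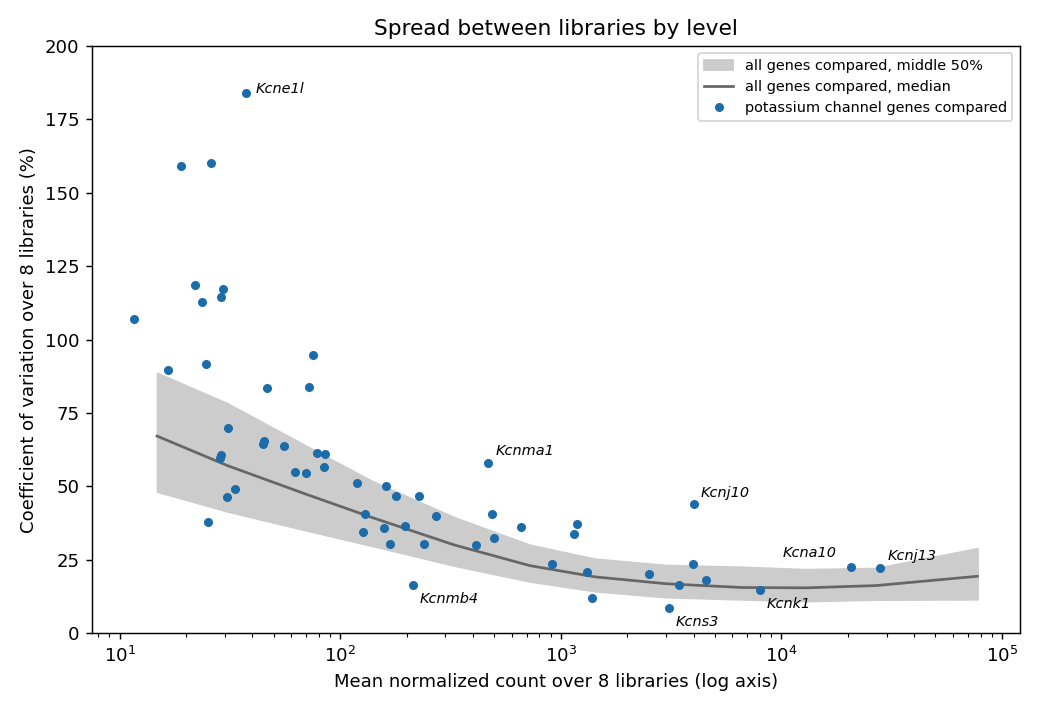
Coefficient of variation over the 8 libraries (%, vertical) against mean normalized count (log axis) of 58 of the potassium channel genes compared (points), with the median (line) and interquartile range (grey) of all genes compared. The low gene Kcne1l (184%) lies far above the grey band, and Kcns3 (8.52%) lies below it.

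The other genes on which these channels depend were taken from 2 lists. Of 13 partner subunit genes, all were compared, 0 were called and 2 (15.4%) had an unadjusted p under 0.05, both higher in the knockout, beside 3.1% of all genes. Lrrc55 and Lrrc38 encode leucine-rich proteins that act as gamma subunits of BK channels. Lrrc55 had 8.45, 28.3, 9.36 and 0 normalized counts in wild type and 222, 39.2, 50.5 and 28.6 in the knockout, which do not overlap, though 28.6 and 28.3 nearly meet, beside 1.46% of all genes without overlap and higher in the knockout. Its log2 difference was 3.06 ± 1.02 (SE; adjusted p 0.895 in limma), and 2.43 without knockout library 1. Lrrc38 had 25.3, 42.0, 21.1 and 31.4 and then 128, 33.3, 43.3 and 153, a log2 difference of 1.30 ± 0.56 (SE; adjusted p 0.895 in limma). Of the related genes on this list, Lrrc52 had a log2 difference of -0.86, and Lrrc26 one of 0.80 in limma and 0.11 in edgeR. The median over the 13 genes was 0.04, with 8 positive and 5 negative. The highest normalized counts of this list, unscaled by length, were those of Ank3, of the anchor protein ankyrin G, with 9326 ± 3745 and 8472 ± 682, Amigo1, a partner of Shab-type channels, with 1908 ± 495 and 1995 ± 480.3, and Dpp10, a partner of Shal-type channels, with 1701 ± 416 and 1724 ± 265 (SD, n = 4 each).

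Of 15 genes of potassium pumps and cotransporters 14 were in the table, 12 were compared and 0 were called. At an unadjusted p under 0.05 limma listed 1 higher and 1 lower (16.7%), beside 5.57% of all genes. The genotypes did not overlap for 2 of the 12, both higher in the knockout, beside 1.46% of all genes. Slc12a5, the potassium-chloride cotransporter gene of neurons, had 98.2, 247, 99.0 and 122 and then 72.7, 100.04, 55.9 and 57.2, a log2 difference of -0.90 ± 0.39 (SE; unadjusted p 0.0411, adjusted p 0.895 in limma). Atp1b1, a sodium pump beta subunit gene, had 28557 ± 2239.8 and 33388 ± 2831 (SD, n = 4 each). Its genotypes did not overlap, by a margin of 30364 in wild-type library 2 against 30677 in knockout library 2. The log2 difference of Atp1b1 was 0.23 ± 0.12 (SE; unadjusted p 0.0852, adjusted p 0.916 in limma). The cotransporter gene Slc12a7 had 13738 ± 4197 and 18849 ± 4827 (SD, n = 4 each).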

How the data were processed

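All gene values came from 1 table deposited by the authors. The signal values deposited by the authors are normalized counts of 8 libraries, 4 per genotype, in which each library's reads share 1 divisor. Multiplying it back gave whole reads, with 100% of 202744 values within 1e-06 of a whole number. They are called reads here, but they may be rounded estimates, as Salmon is among the tools named. The table also has the authors' log2 fold changes, with and without shrinkage, and deposited p-values. Per the submitters' processing notes bcl2fastq 2.20, Salmon 0.14.2 and DESeq2 1.26.0 were used with mm10, and the step each tool served is not stated there. Nextera XT libraries, named in the labels' protocols, carry no strand information.

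Genotypes, taken from the labels, were compared with limma 3.58.1 in R 4.3.3 (trend, empirical Bayes, two-sided) on log2(normalized count + 1). It covered 18203 genes that reached 10 normalized counts in 4 or more libraries, with Benjamini-Hochberg adjustment over all of them. Alternatives were edgeR 4.0.16 and DESeq2 1.42.0 on the recovered reads, pseudocounts of 0.1 and 5, other minimums, TMM scaling and leaving out libraries. In the simulated data, with changed genes drawn at random from all 18203, edgeR called 27 and 73 of 100 genes changed 2-fold and 4-fold (7 false calls). DESeq2 called 45 and 84 there (40 false calls). Each SD is of normalized counts, and each SE is moderated by limma.

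Lengths and shared exon bases came from GENCODE M21 (GRCm38), in which all 83 genes matched and 80 had the coordinates of the deposited table. Reads were amplified without molecular identifiers, and floors allow for counting error alone. The genes and lists were chosen with earlier results of these data known. Named genes were key genes of the cochlea, up to 3 of the most abundant genes of each family, every gene at an unadjusted p under 0.05 or without overlap, and, of the partner and transport lists, the 3 most abundant and those at an unadjusted p under 0.05. Other genes were named after their values were seen. Some genes that this rule names are not reported here, but they remain in all counts and sums.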

Additional observations from a re-analysis of the deposited data

Results flagged for a closer look

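In 16 of 104 groups of 4 libraries (15.4%) of the named genes, 1 library stood far from the other 3, by a gap larger than Dixon's 95% critical share of the whole range. Chance flags about 1 in 20 groups of normally distributed values. These counts are skewed to the right, all 16 were the highest library and in 3 the others were at 0. The share to be expected of such counts was not computed, so whether 15.4% is an excess was not tested. Knockout library 1 was the library in 4 of them. It had 120.2 normalized counts of Kcnd3 (0 to 9.81 in the other 3 knockout libraries), 208 of Kcne1l (8.80 to 19.6), 35.8 of Kcnt1 (0 to 1.10) and 222 of the BK partner gene Lrrc55 (28.6 to 50.5). Wild-type library 2 had 7973 of Kcnj10 (2502 to 2826 in the other 3 wild-type libraries), 332 of Kcnk10 (139 to 168), 42.0 of Kcnu1 (27.9 to 29.6) and 247 of the cotransporter gene Slc12a5 (98.2 to 122). Wild-type library 4 had 238 of Kcnip2 (68.5 to 81.9), 262 of Kcnq3 (140.4 to 159.7) and 8.14 of Kcnc2 (0 in the others). Wild-type library 1 had 62.3 of Kcnc1 (0 to 1.56) and 14.8 of Kcnd2 (0 in the others). Among knockout libraries, library 4 had 68.2 of Kcnab3 (19.6 to 24.2), library 3 had 5635 of Kcnj16 (3926 to 4119) and library 2 had 3.92 of Kcnn3 (0 in the others).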

How the results depend on the processing

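No potassium channel gene was called in any of 16 alternatives (adjusted p under 0.05), and the lowest adjusted p of one in any setting was 0.416. The number at an unadjusted p under 0.05, 4 as reported, was 2 with a minimum of 5 CPM in 4 libraries, 11 with no minimum, 2 with edgeR, 9 without both libraries of the shared title date and 2 to 7 on leaving out 1 library. The number whose genotypes do not overlap, 1 as reported, was 0 with the minimum of 5 CPM, 3 with no minimum, 7 without the shared date and 1 to 4 on leaving out 1 library. By construction other minimums change which genes enter, and leaving out libraries makes separation easier. The median log2 difference, 0.077 as reported, was 0.21 with no minimum, -0.082 in the pair of the shared title date alone, which has no test, and 0.051 to 0.15 on leaving out 1 library.

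Of 47 named genes with a log2 difference, 18 kept their sign in every setting run. For the other 29 some setting gave the opposite sign, and the cause was not tested. On leaving out 1 library in turn this held for Kcna2 (0.050, -0.18 to 0.30), Kcna5 (-0.038, -0.38 to 0.14), Kcnd1 (0.29, -0.097 to 0.79), Kcnd3 (-0.76, -2.20 to 0.11), Kcnf1 (0.13, -0.037 to 0.36), Kcnh6 (-0.085, -0.19 to 0.042), Kcnip3 (-0.073, -0.27 to 0.16), Kcnj10 (0.16, -0.0090 to 0.55), Kcnk1 (0.067, -0.050 to 0.14), Kcnk10 (0.058, -0.11 to 0.34), Kcnmb2 (0.097, -0.012 to 0.21), Kcnmb4 (-0.087, -0.18 to 0.045), Kcnq1 (0.027, -0.35 to 0.62), Kcnq3 (-0.18, -0.37 to 0.023), Kcns3 (0.032, -0.017 to 0.11), Kcnu1 (-0.81, -1.26 to 0.28), Amigo1 (0.067, -0.082 to 0.24), Ank3 (-0.066, -0.20 to 0.18) and Dpp10 (0.037, -0.054 to 0.18), each with the reported value and the range. Without both libraries of the shared date it held for Kcna5 (0.14), Kcnf1 (-0.13), Kcnq1 (-0.084) and Kcns3 (-0.020), and in that pair alone for Kcnab1 (-0.061), Kcnab2 (-0.10), Kcnab3 (-0.55), Kcnd1 (-0.67), Kcne3 (-1.67), Kcnh2 (-0.30), Kcnj10 (-1.25), Kcnj16 (-0.19), Kcnk1 (-0.32), Kcnk10 (-0.79), Kcnmb4 (0.010), Kcnrg (0.10), Kcns1 (0.48), Amigo1 (-0.89), Ank3 (0.085), Lrrc38 (-0.32) and Slc12a7 (-0.31). With edgeR it held for Kcnd3 (0.72) and Kcnj10 (-0.024) and with DESeq2 for Kcnd3 (0.74) and Kcnj10 (-0.018).

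No paired analysis was possible because the replicate numbers follow the order of the samples and pair no libraries, and only 1 title date occurs in both genotypes. Depth limits the low genes, for which 3 reads are worth up to 3.49 normalized counts.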
